A study of Mus musculus with 10 samples.

Results

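Granulocyte-monocyte priming genes are genes of the granule, of growth factor receptors and of transcription factors of the neutrophil and monocyte branch that immature blood cells already transcribe. The 10 members were taken by name from the deposited count table, which lists 25078 genes: Mpo, Elane, Prtn3, Ctsg, Csf1r, Csf3r, Cebpa, Irf8, Spi1 and Itgax. All 10 had counts in every mouse, and all 10 are among the 18747 genes that were tested. RNA was sequenced from LSK cells, the lineage-negative, Sca1+, cKit+ bone marrow fraction that holds stem cells and multipotent progenitors. CM mice were Cbfb56M/+/Mx1-Cre. The second genotype, CM/miR-126Δ/Δ, was miR-126 flox/flox on top of these 2 alleles. Both groups of 5 therefore expressed the Cbfb-MYH11 (CM) fusion allele of inv(16) leukemia, received poly(I:C) to switch on Mx1-Cre, were on a C57BL/6 background and were sampled 6 weeks after induction, before leukemia. Mice of both genotypes, females and males, were 6 to 8 weeks old when the injections began and so older when sampled. Mx1-Cre responds to interferon and is active in blood cells and also in other tissues, and mice without the CM allele were not analysed here, so the comparison is of miR-126 deletion within CM cells.

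Myeloid commitment is directed by a small set of transcription factors. PU.1, the product of Spi1, and C/EBPα, the product of Cebpa, turn on the genes of the azurophil granule and the receptors for granulocyte and macrophage colony-stimulating factors, while IRF8 directs progenitors to monocytes and dendritic cells. The CM fusion protein alters the activity of RUNX1, a partner of both factors, and miR-126 is a microRNA of stem cells that limits their entry into cycle. The comparison asked how far the level of this early myeloid program differed when miR-126 was deleted from CM cells.

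The libraries held 23649233 to 33202086 counts on genes, and 3 counts, the smallest level taken as detectable, corresponded to at most 0.127 CPM. CPM are counts scaled to a common library size, here with TMM factors, and RPKM, which are also divided by exon length, are used where levels of different genes are compared. Kit averaged 166 RPKM in CM and 179 RPKM in CM/miR-126Δ/Δ mice and Ly6a, which encodes Sca1, 57.2 and 58.4 RPKM, while the 8 T and NK cell markers together stayed at or below 13.8 CPM and the 8 B cell markers at or below 42.4 CPM. At the targeted locus, Mir126a, CM mice 1 to 5 had counts of 4, 5, 0, 2 and 3, whereas none was recorded after deletion (0 in each mouse), in the direction the labels give but at or near the detection limit of 3 counts. The 10 markers of maturing neutrophils summed to 16.5 to 63.2 CPM in 4 CM mice and to 20.5 to 40.1 CPM in 4 CM/miR-126Δ/Δ mice, but to 208 CPM in CM mouse 5 and 417 CPM in CM/miR-126Δ/Δ mouse 4. The 10 monocyte and macrophage markers were higher, at 91.2 CPM in CM mouse 2 to 409 CPM in CM mouse 5 and at 203 to 314 CPM in CM/miR-126Δ/Δ mice. The 7 mast cell and basophil markers tested summed to 135 to 290 CPM in CM and 134 to 272 CPM in CM/miR-126Δ/Δ mice. The part of such cells in the levels of the members was not tested. Egfl7, the host gene of miR-126, averaged 71.9 RPKM in CM and 67.3 RPKM in CM/miR-126Δ/Δ mice (log2 fold change −0.10, edgeR adjusted p = 0.845), and mature miR-126 is not measured by such libraries. In bulk samples fewer cells of a type and less RNA per cell cannot be told apart.

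Per unit of exon length the members spanned a wide range. Mpo, myeloperoxidase, was the 16th of the 18747 genes by mean RPKM, at 853 RPKM over all mice. It was followed by Ctsg at 273, Prtn3 at 230, Elane at 89.8, Spi1 at 58.3, Cebpa at 40.1, Csf3r at 40.0, Irf8 at 26, Csf1r at 22.5 and Itgax at 1.69 RPKM. Mpo lay above Ctsg, Prtn3 above Elane and Csf1r above Itgax with no overlap of their ranges over the 10 mice, whereas the ranges of the other 6 pairs of neighbours overlapped. Cebpa and Csf3r exchanged places from mouse to mouse, Cebpa being the higher in 3 of 10.

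The promoters of the 4 granule genes are shown because these genes were read together in what follows, and that of Itgax because it was the member called as different. Each sequence runs from 250 bases before to 50 bases after the RefSeq start of the gene in GRCm38.p6 and is written in the direction of transcription. Capitals mark 3 short words sought on both strands, namely AGGAAGT, a form of the site bound by PU.1 and related ETS factors, CAACGG, a form of the MYB site, and TGTGGT, the core of the RUNX site. The words were chosen after the sequences had been read and do not overlap in these windows.
Mpo, chr11:87793534-87793833 (+ strand): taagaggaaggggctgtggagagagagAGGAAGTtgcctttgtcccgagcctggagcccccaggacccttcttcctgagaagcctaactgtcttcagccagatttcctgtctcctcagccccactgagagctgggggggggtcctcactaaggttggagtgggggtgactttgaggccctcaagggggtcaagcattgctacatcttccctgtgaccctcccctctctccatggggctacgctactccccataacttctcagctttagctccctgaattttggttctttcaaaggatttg
Elane, chr10:79886062-79886361 (+ strand): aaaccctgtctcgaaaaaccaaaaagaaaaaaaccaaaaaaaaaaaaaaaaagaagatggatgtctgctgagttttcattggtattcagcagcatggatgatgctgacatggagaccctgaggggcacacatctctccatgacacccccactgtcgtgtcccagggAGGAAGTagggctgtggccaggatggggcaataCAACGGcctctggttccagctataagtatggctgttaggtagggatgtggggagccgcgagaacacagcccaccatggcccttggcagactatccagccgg
Prtn3, chr10:79879417-79879716 (+ strand): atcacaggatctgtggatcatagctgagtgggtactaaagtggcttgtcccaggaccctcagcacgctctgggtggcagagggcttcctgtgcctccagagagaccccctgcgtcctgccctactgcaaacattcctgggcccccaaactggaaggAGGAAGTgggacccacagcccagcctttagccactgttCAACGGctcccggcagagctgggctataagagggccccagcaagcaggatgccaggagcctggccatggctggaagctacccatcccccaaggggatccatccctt
Ctsg, chr14:56102525-56102824 (- strand): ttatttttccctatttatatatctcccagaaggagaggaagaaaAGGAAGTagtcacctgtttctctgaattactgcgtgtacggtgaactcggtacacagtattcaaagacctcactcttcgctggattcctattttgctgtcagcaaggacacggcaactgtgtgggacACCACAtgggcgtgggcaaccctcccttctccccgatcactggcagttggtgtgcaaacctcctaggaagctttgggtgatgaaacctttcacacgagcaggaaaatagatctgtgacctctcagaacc
Itgax, chr7:128129300-128129599 (+ strand): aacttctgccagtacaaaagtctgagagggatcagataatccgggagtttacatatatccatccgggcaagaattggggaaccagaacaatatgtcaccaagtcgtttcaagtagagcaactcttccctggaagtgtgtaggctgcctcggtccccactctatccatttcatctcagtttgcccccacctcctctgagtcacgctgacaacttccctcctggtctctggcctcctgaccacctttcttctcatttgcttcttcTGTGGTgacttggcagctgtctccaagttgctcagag

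AGGAAGT was present once in each of the 4 granule promoters, in the direction of transcription, with its first base 223 bases before the start in Mpo, 84 in Elane, 94 in Prtn3 and 206 in Ctsg. On either strand it occurred in 9.35% of all 32851 promoter windows. Because the words were chosen after these sequences had been read, this share and those below are descriptions only. It was found in none of the 5 windows of Csf3r, Cebpa, Irf8 (which has 2) and Itgax. The promoters of Csf1r and Spi1 were not searched. Elane and Prtn3, which lie next to each other on chromosome 10, also shared CAACGG, 51 and 56 bases before their starts, a word present in 5.12% of windows. TGTGGT was found in Ctsg, on the opposite strand, and in Itgax, 14 bases after the start, against 16.8% of windows. A match of letters describes the sequence and does not show that a factor binds there.

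The granule genes did not differ between the genotypes beyond the spread between mice. Mpo (chr11:87793784-87804412) encodes the heme enzyme that makes hypochlorous acid in the azurophil granule. It was at 2152, 1506, 2942, 2319 and 1878 CPM in CM mice 1 to 5 and at 1231, 2033, 3622, 1633 and 2404 CPM in CM/miR-126Δ/Δ mice 1 to 5. The 2 sets overlapped throughout, with mouse 3 the highest of each genotype. On the log2 scale the fold change, CM/miR-126Δ/Δ minus CM, was 0.02 (95% interval −0.52 to 0.55, edgeR adjusted p = 0.986).

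Elane (chr10:79886312-79888216), neutrophil elastase, was the most variable member. It was at 106, 24, 86.5, 86.1 and 71.1 CPM in CM mice 1 to 5 and at 36.2, 107, 129, 87.7 and 92.7 CPM in CM/miR-126Δ/Δ mice. CM mouse 2 and CM/miR-126Δ/Δ mouse 1 were low, and the highest mouse was 5.40 times the lowest. Its log2 fold change was 0.28 (95% interval −0.44 to 1.00, adjusted p = 0.857), so a rise of 1.5-fold, which is 0.58 on the log2 scale, lies inside the interval.

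Prtn3 (chr10:79879667-79883172), proteinase 3, was the steadiest of the 4 granule genes. CM mice 1 to 5 had 215, 195, 256, 245 and 199 CPM, and CM/miR-126Δ/Δ mice 1 to 5 had 160, 194, 296, 224 and 249 CPM. The CM/miR-126Δ/Δ values surrounded those of CM. The log2 fold change was 0.02 (95% interval −0.28 to 0.31, adjusted p = 0.977), an interval that does not reach 1.5-fold in either direction.

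Ctsg (chr14:56099885-56102574, minus strand), cathepsin G, was at 272, 211, 358, 297 and 227 CPM in CM mice and at 167, 245, 402, 250 and 291 CPM in CM/miR-126Δ/Δ mice 1 to 5. Mouse 3 was again the highest of each genotype, and the groups overlapped. Its log2 fold change was −0.01 (95% interval −0.42 to 0.40, adjusted p = 0.988). In the 2 mice with high neutrophil markers the granule genes were not the highest of their genotype: Mpo stood at 1878 CPM in CM mouse 5 and at 1633 CPM in CM/miR-126Δ/Δ mouse 4.

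**Figure D1:**
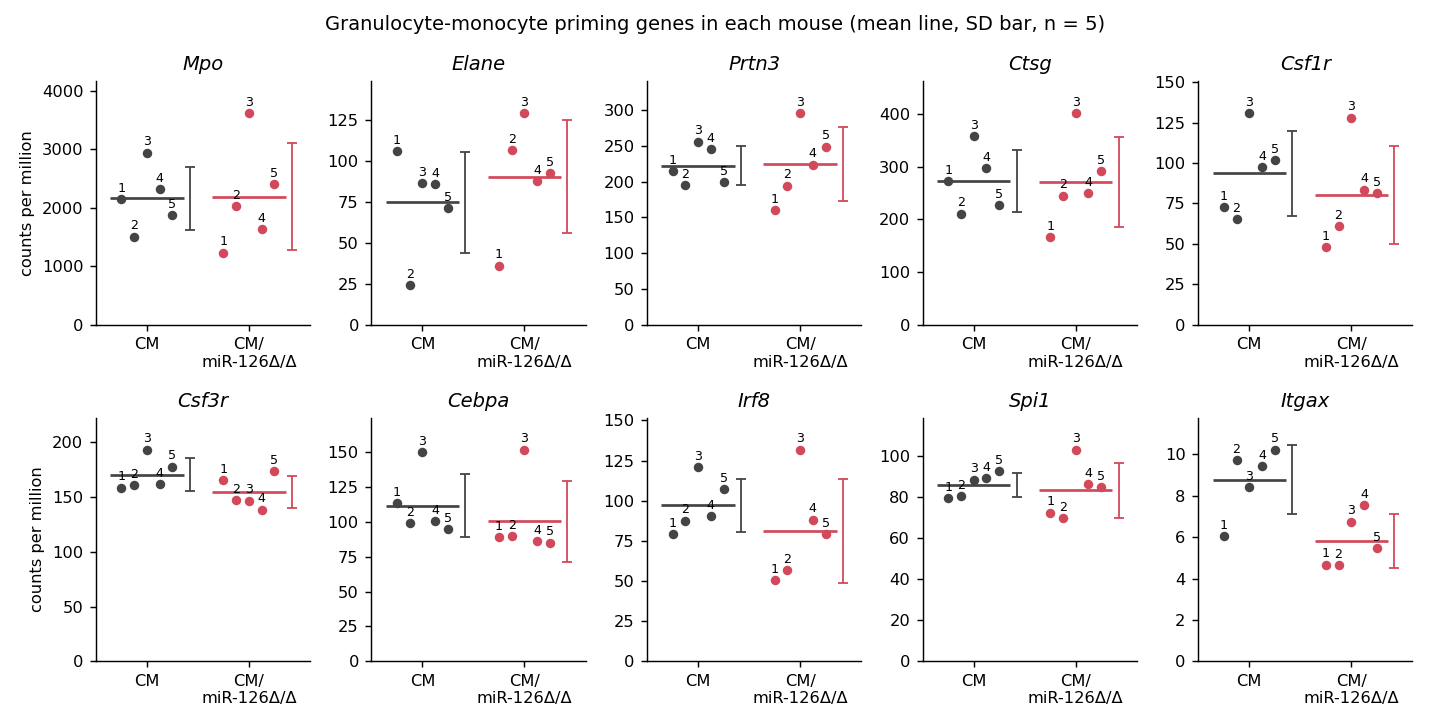
CPM (linear axes from 0) of the 10 priming genes in each mouse, with CM in grey and CM/miR-126Δ/Δ in red, numbers naming the mice, lines giving the mean and side bars the SD of 5 mice. The genotypes overlap in every panel, mouse 3 is the highest CM mouse for 7 genes and the highest CM/miR-126Δ/Δ mouse for 8, and Itgax is the gene whose means lie farthest apart relative to the spread.

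The 2 growth factor receptors were lower on average after deletion, by less than the call rule requires. That rule, the study's own, asks for p of 0.01 or less, a fold change of 1.5 or more and 1 RPKM or more as the mean of either genotype. Csf1r, the receptor for macrophage colony-stimulating factor, lies at chr18:61105572-61131139, where it spans the small Mir6983 locus. It was at 72.6, 65.4, 131, 97.3 and 102 CPM in CM and at 48.1, 61.1, 128, 83.5 and 81.2 CPM in CM/miR-126Δ/Δ mice 1 to 5. The groups overlapped, but each CM/miR-126Δ/Δ mouse was below the CM mouse of the same number. The log2 fold change was −0.22 (95% interval −0.71 to 0.27, adjusted p = 0.812). With the mouse number as a block, which assumes that equal numbers pair the mice, it was −0.25 (95% interval −0.42 to −0.09, edgeR adjusted p = 0.278). There the unadjusted p was under the limit of 0.01 and the size under 1.5-fold. In the unpaired fit the log2 fold change ran from −0.45 without CM/miR-126Δ/Δ mouse 3 to −0.057 without CM mouse 3. It was −0.070 without CM/miR-126Δ/Δ mouse 1 and −0.14 without mouse 2.

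Csf3r (chr4:126024659-126044975), the receptor for granulocyte colony-stimulating factor, varied least of all members, the highest mouse being 1.40 times the lowest. CM mice 1 to 5 had 158, 160, 193, 161 and 177 CPM, and CM/miR-126Δ/Δ mice had 165, 147, 146, 138 and 173 CPM. In CM/miR-126Δ/Δ 3 mice were below every CM mouse and the other 2 lay within the CM range. Its log2 fold change was −0.14 (95% interval −0.31 to 0.02, adjusted p = 0.765), and −0.14 with the block (95% interval −0.29 to 0.00, adjusted p = 0.566).

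Among the transcription factors Irf8 showed the largest average difference. Irf8 (chr8:120736358-120756692) was at 79.4, 87.6, 121, 90.2 and 107 CPM in CM and at 50.7, 56.7, 132, 88.2 and 79.1 CPM in CM/miR-126Δ/Δ mice 1 to 5. CM/miR-126Δ/Δ mouse 3 was the highest of all 10 mice, whereas mice 1, 2 and 5 were below every CM mouse, mouse 5 by a small margin. The log2 fold change was −0.26 (95% interval −0.70 to 0.19, adjusted p = 0.765). It was −0.32 with the block (95% interval −0.55 to −0.09, edgeR adjusted p = 0.322), and −0.50 without CM/miR-126Δ/Δ mouse 3 (edgeR adjusted p = 0.576), in both with an unadjusted p under 0.01 and a size under 1.5-fold. Other single mice moved it the other way, to −0.12 without CM/miR-126Δ/Δ mouse 1 and −0.15 without mouse 2 or without CM mouse 3.

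Cebpa (chr7:35119293-35121931) was at 113, 99.2, 150, 100 and 95 CPM in CM mice 1 to 5. CM/miR-126Δ/Δ mice 1, 2, 4 and 5 had 88.9, 89.7, 86.1 and 85.1 CPM, each below all 5 CM mice, and mouse 3 had 152 CPM, above all of them. The log2 fold change was −0.15 (95% interval −0.50 to 0.20, adjusted p = 0.819). Without mouse 3 of CM/miR-126Δ/Δ it was −0.35, with an unadjusted p under 0.01 (edgeR adjusted p = 0.580), and without mouse 3 of CM −0.01. That CM/miR-126Δ/Δ library also had the highest share of counts on the ribosomal precursor Rn45s (22.6%, against 14.8% to 18.6% in the other 9), the lowest RNA concentration (16.1 ng per µl, against 18.2 to 40.9) and the lowest TMM factor (0.922). The part of these values in its high Cebpa was not tested. With Rn45s left out the log2 fold change of Cebpa was −0.15 and that of Irf8 −0.25.

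Spi1 (chr2:91096678-91115759) was even across mice. It was at 79.4, 80.7, 88.7, 89.5 and 92.9 CPM in CM and at 72.6, 69.8, 103, 86.6 and 85.1 CPM in CM/miR-126Δ/Δ mice 1 to 5, with overlap of the groups. Its log2 fold change was −0.05 (95% interval −0.25 to 0.15, adjusted p = 0.922), an interval that does not reach 1.5-fold.

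Itgax (chr7:128129550-128150657) encodes CD11c, the integrin αX chain of dendritic cells and some monocytes, and was the member with the lowest level. It was at 6.06, 9.71, 8.43, 9.44 and 10.2 CPM in CM and at 4.67, 4.64, 6.75, 7.56 and 5.48 CPM in CM/miR-126Δ/Δ mice 1 to 5. The CM mice lay higher apart from mouse 1, which overlapped with CM/miR-126Δ/Δ mice 3 and 4, and each CM/miR-126Δ/Δ mouse was below the CM mouse of the same number. The highest mouse of each genotype, CM mouse 5 and CM/miR-126Δ/Δ mouse 4, was the one with high neutrophil markers (summed level 208 and 417 CPM), whose part in the difference was not tested. CM mice averaged 8.78 ± 1.66 CPM (SD, n = 5), and after deletion the average was 5.82 ± 1.30 CPM (SD, n = 5). The fold change was 1.51 (log2 −0.59, 95% interval −0.97 to −0.22, edgeR adjusted p = 0.623). The difference in mean CPM had p = 0.0238 in the two-sided exact permutation test over all 252 arrangements of the mice (1 of 10 such tests, unadjusted, the smallest p that 5 against 5 mice can give being 0.00794). The exact test over sign changes of the 5 same-numbered pairs gave p = 0.0625, the smallest it can give.

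Itgax was thus the 1 member of 10 called, against 0.288% of all genes tested (54 of 18747). The members were chosen with earlier results of these data known. This and the later counts of members set beside all genes are therefore descriptions only. The call rests on a narrow margin. The fold change was just under 1.5 with RLE factors, DESeq2 or filterByExpr. Of the 10 fits that left out 1 mouse 4 made the call, and it was lost without CM mice 2, 4 or 5 or CM/miR-126Δ/Δ mice 1, 2 or 5, where the log2 fold change was −0.57 to −0.51. The log2 fold change stayed between −0.69 and −0.51 in all 18 alternatives.

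**Figure D2:**
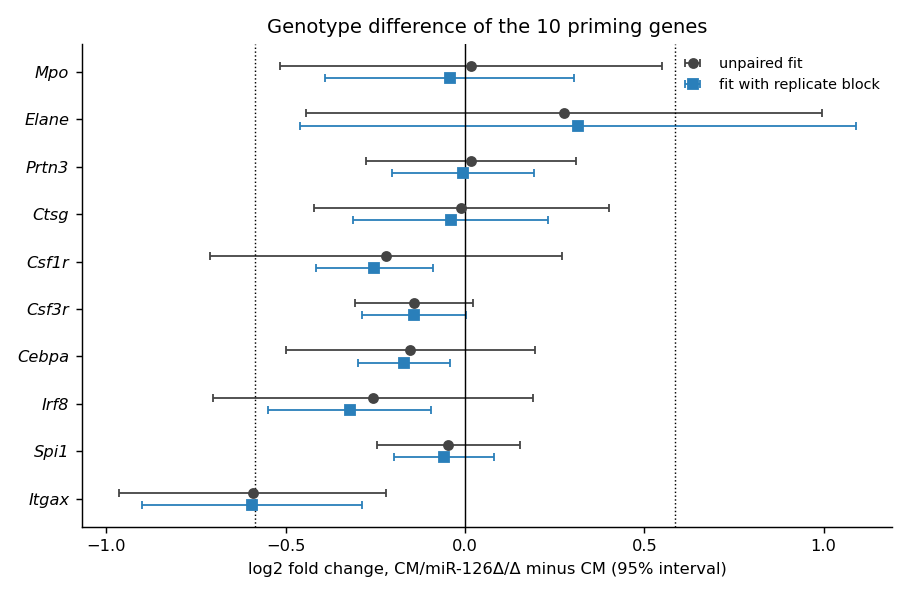
Log2 fold change of each priming gene, CM/miR-126Δ/Δ minus CM, with 95% intervals from the unpaired edgeR fit (circles) and from the fit with the mouse number as a block (squares), with dotted lines at 1.5-fold. The intervals of Itgax exclude 0 in both fits (−0.97 to −0.22 and −0.90 to −0.29), those of Csf1r, Cebpa and Irf8 only with the block, and the 4 granule genes lie around 0 or, for Elane, at 0.28 with the widest interval.

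Counted together, 7 of 10 members were lower in CM/miR-126Δ/Δ mice, where 57.5% of genes averaging 1 RPKM or more were lower, and the median log2 fold change was −0.09 against −0.02 over those genes. In all, 6 members, namely Csf1r, Csf3r, Cebpa, Irf8, Spi1 and Itgax, were lower in at least 4 of the 5 same-numbered pairs, as were 27.6% of genes, and the 4 granule genes were not among them. No member separated the genotypes completely, which 1.38% of genes did. At p of 0.01 or below there was 1 member (1.48% of genes tested). In the fit with the block 3 members, Csf1r, Irf8 and Itgax, had p at or below 0.01, all lower after deletion, where 3.05% of genes had such a p, and 1 of 10 was called, again Itgax, against 0.613% of genes. No member had an adjusted p below 0.05 in either fit. No difference of the genotype effect between females and males was detected for any member (edgeR interaction, adjusted p = 1.00 for all 10), with mice 1 to 3 of each genotype female and mice 4 and 5 male.

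The granule genes moved together from mouse to mouse. Over the 10 mice log2 CPM of Mpo and Ctsg had Pearson r = 0.97 and Spearman rho = 0.95, with adjusted p = 0.00112 and 0.00390 by permutation over 45 pairs of members. Prtn3 and Ctsg had r = 0.97. The 6 pairs among Mpo, Elane, Prtn3 and Ctsg had r from 0.66 to 0.97, and 5 of them had an adjusted p below 0.05. Within the 6 females r was 0.65 to 0.99 for these pairs. Leaving out the 2 mice farthest from the median of the first gene gave 0.43 to 0.93, the low values belonging to pairs with Elane. By rho the pairs with Elane did not pass (rho = 0.45 to 0.65, adjusted p = 0.145 to 0.319 by permutation).

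Csf1r, Irf8 and Spi1 also moved together, with r from 0.89 to 0.94 over all mice, 0.88 to 0.94 in the females and 0.83 to 0.96 without the 2 most distant mice. Csf1r and Irf8 had r = 0.94 and rho = 0.94 (adjusted p = 0.00225 and 0.00390 by permutation). By Pearson r these 3 genes were also related to the granule genes, 6 of the 12 pairs between them having an adjusted p below 0.05. In these 6 pairs r was 0.74 to 0.85. Without the 2 most distant mice r of these 6 pairs was 0.34 to 0.66. By rho only Prtn3 with Csf1r passed among the 12 (rho = 0.83, adjusted p = 0.0304 by permutation). By Pearson r Cebpa was related to Mpo (r = 0.75) and Ctsg (r = 0.74) at an adjusted p below 0.05, and in all 16 of the 45 pairs passed. By rho neither pair of Cebpa passed (rho = 0.54 with Mpo and 0.55 with Ctsg, adjusted p = 0.215 by permutation).

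Csf3r had r between −0.19 and 0.28 with the other 9 members and Itgax between −0.20 and 0.27 with the granule genes, none with an adjusted p below 0.05. Without the 2 most distant mice these ranges widened to −0.57 to 0.65 and −0.67 to 0.03. Itgax was closest to Irf8 (r = 0.71, rho = 0.68, adjusted p = 0.0569 and 0.133 by permutation), with r = 0.29 without the 2 most distant mice, and to Spi1 (r = 0.61, adjusted p = 0.117 by permutation), with r = 0.73 without them. All these points share libraries and scaling. Mouse 3 of both genotypes was high for most members, CM mouse 2 was the lowest CM mouse for 5 members and CM/miR-126Δ/Δ mouse 1 the lowest of its genotype for 6.

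**Figure D3:**
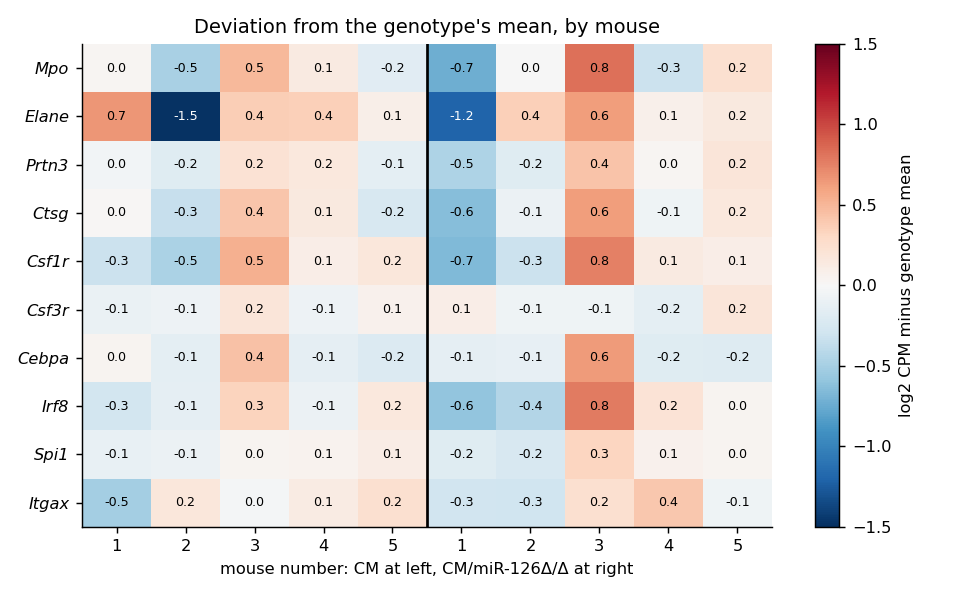
Log2 CPM of each member minus the mean of its genotype, by mouse, on a colour scale from −1.5 (blue) to 1.5 (red) with the rounded value in each cell. CM/miR-126Δ/Δ mouse 3 is above its genotype's mean for every member except Csf3r and mouse 1 is below it for every member except Csf3r, and the lowest cell is Elane in CM mouse 2.

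The genes most like the mean of Mpo, Elane, Prtn3 and Ctsg over the 10 mice, among 11672 other genes averaging 1 RPKM or more, were Ly6c2 (r = 0.98), a surface antigen of monocytes and their progenitors, Alas1 (r = 0.95), the first enzyme of heme synthesis in most cells, Ttc39c (r = 0.94), Igsf6 (r = 0.94) and Hk3 (r = 0.92), a hexokinase of myeloid cells. Their log2 fold changes between genotypes were −0.06 to 0.16. The genes most like the mean of Csf1r and Irf8 were Snx9 (r = 0.95), Rgs10 (r = 0.94), Ms4a6c (r = 0.94), Plac8 (r = 0.93) and Nlrc4 (r = 0.92), the last an inflammasome sensor of myeloid cells. Their log2 fold changes were −0.19 to −0.06. These are the highest of many correlations and are given as descriptions.

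Other myeloid genes were read in 3 lists. As a measure for these and the later lists, 57.5% of genes averaging 1 RPKM or more were lower after deletion. Of all genes tested 0.288% were called. Of 12 further granule and progenitor genes 0 were called, 5 were higher and 7 lower, with a median log2 fold change of −0.06. Cst7, which encodes the protease inhibitor cystatin F, had the smallest p (52.3 RPKM in CM, 43 in CM/miR-126Δ/Δ, log2 −0.28, edgeR adjusted p = 0.746), and Plac8 (log2 −0.19) and Ctsc, the activator of the granule proteases (log2 −0.09), followed.

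Of 14 further receptor and surface genes 0 were called and 13 were lower, with a median of −0.19. Of these 3 had an unadjusted p below 0.05, as did 6.61% of all genes tested. They were the 2 chains of the GM-CSF receptor, Csf2ra (13.1 and 10.8 RPKM, log2 −0.28, edgeR adjusted p = 0.746) and Csf2rb (36.6 and 31.7 RPKM, log2 −0.21), and Itgam, the integrin chain CD11b (18.8 and 14.7 RPKM, log2 −0.35). Csf2ra and Csf2rb were lower in 5 of 5 same-numbered pairs, as were other genes of this list. The share of all genes lower in 5 of 5 was not counted, and 27.6% of genes averaging 1 RPKM or more were lower in at least 4.

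Of 14 further transcription factor genes 0 were called and 12 were lower, with a median of −0.08. Klf4, a factor of monocyte differentiation, was at 6.59 RPKM in CM and 2.95 RPKM in CM/miR-126Δ/Δ (log2 −1.16, SE 0.39, edgeR adjusted p = 0.690), just short of the limit on unadjusted p, and passed the call rule with the block (log2 −1.08, edgeR adjusted p = 0.165). Cebpb (log2 −0.49) and Irf4 (log2 −0.65) also had an unadjusted p below 0.05.

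Of 10 dendritic cell markers 9 were lower, with a median log2 fold change of −0.33, against the 57.5% of genes given above. Of the 10 markers 1 was called, against 0.288% of genes. Siglech, a receptor of plasmacytoid dendritic cells, was at 2.28 RPKM in CM and 1.20 RPKM in CM/miR-126Δ/Δ (log2 −0.91, edgeR adjusted p = 0.637). H2-Ab1 (log2 −0.35) and Bst2 (log2 −0.19) were not called. The summed CPM of the 10 markers ran from 542 to 797 in CM and from 547 to 676 in CM/miR-126Δ/Δ mice, most of it from Flt3, which multipotent progenitors also express. With the block 4 of the 10, Siglech, H2-Ab1, Cd74 (79.9 and 56.2 RPKM, log2 −0.55 with the block, adjusted p = 0.202) and H2-Aa (log2 −0.39 with the block, adjusted p = 0.316), were lower at p of 0.01 or below, against the 3.05% of genes given above. Of the defining markers Xcr1 had 0 to 9 and Clec9a 11 to 61 counts per mouse, with log2 fold changes of −0.32 and −0.18. Zbtb46 was the 1 marker that was higher, at 0.192 RPKM in CM and 0.245 RPKM in CM/miR-126Δ/Δ (log2 0.35, edgeR adjusted p = 0.765). Siglech was at 10.1 CPM in CM mouse 3, against 3.86 to 5.15 CPM in the other 4 CM mice. Cd74 and the H2 genes encode parts of the MHC class II system, which B cells also use. The part of dendritic cells in the difference of Itgax was not tested. Of 10 monocyte and macrophage markers 8 were lower and 0 called, C1qb at 12.4 and 6.52 RPKM (log2 −0.93, adjusted p = 0.765) and Cd68 at 16.8 and 14.0 RPKM (log2 −0.26), while Marco had no counts in CM mice and 0.169 RPKM in CM/miR-126Δ/Δ, nearly all from mouse 4.

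The other branches are given for comparison. Of 10 lymphoid priming genes tested Il7r, the interleukin 7 receptor chain (5.57 and 2.88 RPKM, log2 −0.95, edgeR adjusted p = 0.626), and Rag2, a subunit of the recombinase (1.59 and 0.987 RPKM, log2 −0.69, edgeR adjusted p = 0.663), were called lower, and the median was −0.44. Ccr9 (log2 −0.80) was below 1 RPKM. Of 10 megakaryocyte and erythroid priming genes 0 were called and 7 were higher, with a median of 0.11. Itga2b (log2 −0.26), Zfpm1 (log2 0.16) and Car1 (log2 0.69) had the smallest p. Of 10 LSK and stem cell markers 0 were called and 7 were higher, with Hlf (102.5 and 126.7 RPKM, log2 0.31, edgeR adjusted p = 0.661), Meis1 (log2 0.19) and Mecom (log2 0.24) at an unadjusted p below 0.05. Differences between these lists were not tested, and Flt3 is in both the lymphoid and the dendritic list.

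**Figure D4:**
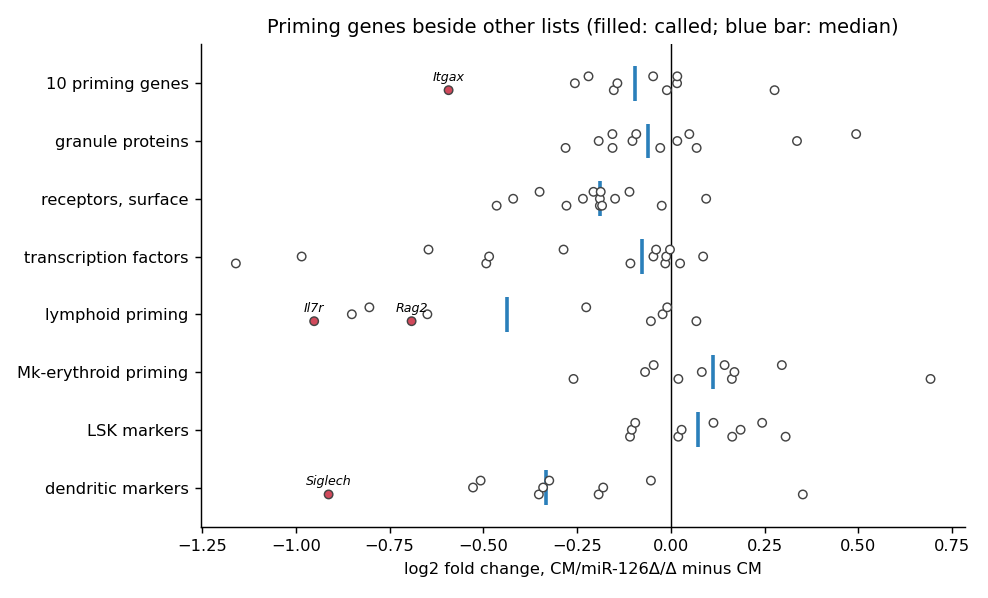
Log2 fold change of each gene, CM/miR-126Δ/Δ minus CM, for the 10 priming genes and 7 other lists, with filled circles for called genes and blue bars for list medians. The priming genes and the further granule genes centre near 0 (medians −0.09 and −0.06), the receptors at −0.19, the dendritic markers at −0.33 and the lymphoid genes at −0.44, and the 4 called genes are Itgax, Il7r, Rag2 and Siglech.

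The remaining markers of other cells held 0 called genes of the 37 tested. Camp and S100a8, granule and cytosolic proteins of maturing neutrophils, had log2 fold changes of 1.14 and 0.92 with SE of 1.30 and 1.12, and Cxcr2 of −0.27. Among B cell markers Cd79b, Ebf1 and Igll1 had −0.12, −0.65 and −1.04, Igll1 being called with the block (log2 −1.33, edgeR adjusted p = 0.324), and among T and NK cell markers Cd3g, Cd8a and Cd3d had −0.44, −0.33 and −0.35. Alas2 and Klf1 of red cells had −0.40 and 0.08, Hbb-bs had counts in 1 mouse only, and Cma1, Fcer1a and Cpa3 of mast cells had −1.13, −0.23 and −0.21. In the unpaired fit all of these had an adjusted p of at least 0.765.

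The microRNA that the genotypes differ in is shown with its seed, bases 2 to 8, in capitals, and its complement was sought in the members.
mmu-miR-126a-3p, chr2:26591402-26591423 (+ strand): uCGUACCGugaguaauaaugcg
The 7-base complement of the seed, CGGTACG, was present in the longest 3′ untranslated region of 25 of 9638 genes averaging 1 RPKM or more (0.259%), and the 6-base form GGTACG in 3.58%. Neither was present in any of the 9 members for which such a region was given, and Spi1 was not analysed here. The regions of the granule genes are short, 78 bases in Ctsg to 348 bases in Mpo, and that of Csf1r is 1669 bases long.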

How the data were processed

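RNA of LSK cells, depleted of ribosomal RNA, was sequenced from 5 mice of each genotype, 1 library for each mouse. Genotype and mouse number were taken from the sample labels. The authors aligned the reads to mm10 with TopHat2 and obtained reads per RefSeq gene with HTSeq 0.6.1p1, the version being that of the submitters' processing notes. The deposited counts are whole reads per gene without normalization. The strand setting of that step is not given in the sources used here. A second deposited table of normalized values was not used.

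Genes with at least 1 count were fitted with edgeR 4.0.16 (TMM, quasi-likelihood F-test in its legacy form, two-sided, genotype only), with Benjamini-Hochberg adjustment over all genes tested. Calls needed p of 0.01 or less, a fold change of 1.5 or more and 1 RPKM or more as the mean of either genotype, RPKM being computed here from counts and exon lengths. CPM are TMM-scaled, and log2 CPM used a prior count of 2. DESeq2 1.42.0, RLE factors, filterByExpr, robust dispersions, sex (from Xist and Y-linked genes), omission of Rn45s, no RPKM minimum, a replicate block and each mouse left out were the alternatives. The count tests were checked on simulated data. Exact permutation tests used scipy. Correlations used 100000 permutations.

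Mouse numbers 1 to 5 occur in both genotypes. Deviations from the genotype mean over 11682 genes correlated at 0.17 to 0.46 in the 5 same-numbered pairs. In pairs of different number they correlated at −0.44 to 0.50. The numbers were taken to pair the mice, though 3 of 5 CM mice matched their own number best. Same-numbered mice also share their sex, and the labels do not state a pairing. Results with the block or by same-numbered pairs therefore rest on an assumption that was not tested further.

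The members and lists were chosen with earlier results of these data known. Named beyond the members were Egfl7, Kit and Ly6a, the called genes of each list or its 3 genes of smallest p, and the 5 genes most like each of 2 member groups. Mir126a, Rn45s, Flt3, Xcr1, Clec9a, Zbtb46, Cd74 and H2-Aa fall outside this rule and were chosen after their values were seen. Promoter and miRNA sequences are from RefSeq (GRCm38.p6, promoters of 8 of 10 members searched). The 3′ untranslated regions are from GENCODE M1, used for sequence only. Total counts limit precision, and such limits cover counting error only. Labels call the libraries separate mice. Listed markers with too few counts were not tested, and 1 item of the erythroid marker list is not reported here.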

Additional observations from a re-analysis of the deposited data

Results flagged for a closer look

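A mouse was singled out where its gap to the nearest of the other 4 of its genotype took up more than 0.71 of the range. Of 150 such groups of 5 examined 20 were singled out, where chance gives about 1 in 20. Among the members this applied to Cebpa in CM/miR-126Δ/Δ mouse 3, at 152 CPM, against 85.1 to 89.7 CPM in the other 4.

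The remaining instances concern genes and marker sums beside the members. In CM/miR-126Δ/Δ mouse 4 Kit was low at 702 CPM, the LSK and stem cell markers summed to 2956 CPM against 3473 to 3614, and the maturing neutrophil markers summed to 417 CPM. In the same mouse Camp was at 22.7, S100a8 at 72.2, Marco at 1.58, H2-Ab1 at 81.3, Cd3d at 1.23, Alas2 at 35.5 and Fcer1a at 48.5 CPM, each the highest of its genotype. In CM mouse 5 Kit was high at 980 CPM, the neutrophil markers summed to 208 CPM, and Camp was at 8.58, S100a8 at 27.6 and Hbb-bs at 0.0330 CPM. Alas2 was low at 4.10 CPM in CM mouse 2, Siglech high at 10.1 CPM in CM mouse 3 and Csf2rb high at 180 CPM in CM/miR-126Δ/Δ mouse 5, and the lymphoid priming genes summed to 2219 CPM in CM/miR-126Δ/Δ mouse 3. Without CM/miR-126Δ/Δ mouse 4 the log2 fold change of Itgax was −0.69 (edgeR adjusted p = 0.281).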

How the results depend on the processing

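The number of genes called over the whole table was 54, against 115 with the replicate block, 111 with no requirement on RPKM and 33 to 128 when 1 mouse was left out, the lowest without CM/miR-126Δ/Δ mouse 5 and the highest without CM mouse 3. It was 43 to 64 with RLE factors, DESeq2, filterByExpr, sex as a covariate, robust dispersions or without Rn45s.

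Of the members 1 was called, against 0 with RLE factors, 0 with DESeq2, 0 with filterByExpr and 0 to 1 when 1 mouse was left out. The member in question is Itgax, whose log2 fold change was −0.58 with each of these 3 settings, against a limit of 0.58 on either side before rounding. Of the other lists 3 genes were called, against 5 with the replicate block (Klf4 and Igll1 in addition) and 1 to 7 when 1 mouse was left out. The block changed no other call. By exact permutation 1 member had p below 0.05, against 0 over sign changes of the pairs (replicate block), a test that cannot go below 0.0625.

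Members near 0 changed sign. With the replicate block Mpo had a log2 fold change of −0.042 and Prtn3 of −0.0052, and with filterByExpr Ctsg had 0.0065. With 1 mouse left out the log2 fold changes ran from −0.24 to 0.18 for Mpo, from −0.10 to 0.13 for Prtn3, from −0.20 to 0.13 for Ctsg and from −0.14 to 0.011 for Spi1. Elane stayed positive and the other 5 members negative under all alternatives. With 1 mouse left out Elane ran from 0.050 without CM mouse 2 to 0.49 without CM/miR-126Δ/Δ mouse 1. The cause of these changes was not tested. With 5 mice per genotype the 95% intervals of Mpo, Elane, Csf1r and Irf8 leave room for differences of about 1.4-fold to 2-fold.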
